A study of Mus musculus with 11 samples.

Results

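Class I histocompatibility genes were followed in late 2-cell mouse embryos across 4 groups of arrays. The 10 genes (H2-K1, H2-D1, H2-Q1, H2-Q2, H2-Q6, H2-Q7, H2-Q10, H2-T23, H2-M3 and B2m) were chosen by name with earlier results of these arrays known, the fall of H2-Q6 in untreated mutant embryos among them. That fall is therefore given as a description, with no test. For each gene, rows of the platform annotation that name it alone were taken, and the brightest of them by mean over the 11 arrays was used. Such a row was found for 9 of the 10 genes, out of 21210 genes with a row of their own among 34760 probe sets. H2-Q7 had none, since its one row also names H2-Q6.

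RNA was measured in pools of 40 embryos, 1 pool per array, on Affymetrix whole-transcript arrays after whole-transcriptome amplification. All embryos came from eggs without Ring1 on a mixed 129/Sv and C57BL/6J background, fertilized in vitro with wild-type sperm, from egg donors of 5 to 10 weeks and sperm donors of 10 to 16 weeks. Control embryos kept maternal Rnf2 (matRing1-/Rnf2+) and mutant embryos lacked it as well, so the genotypes compared differ in maternal Rnf2 alone. Ring1 and Rnf2 encode the paired E3 ubiquitin ligase subunits of Polycomb repressive complex 1. Each genotype was either left untreated (3 control and 3 mutant arrays) or moved at 6 h after fertilization into medium with 24 µg/ml α-amanitin, a blocker of messenger RNA transcription, and harvested at 35 h (3 control and 2 mutant arrays). The harvest time of the untreated embryos and the way the genes were deleted are not given in the labels. Embryos of several mice were pooled, and the sperm brought a wild-type copy of both genes.

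Class I molecules carry peptides from inside the cell to its surface, where T cells and natural killer cells read them. A heavy chain, encoded in the H2 complex, folds around the peptide and pairs with beta-2-microglobulin, the light chain made from B2m. The classical heavy chains are H2-K and H2-D, while the Q, T and M regions encode nonclassical ones with narrower expression. Q-region genes that include H2-Q7 encode Qa-2, a protein held in the membrane by a glycosylphosphatidylinositol (GPI) anchor and known in mouse preimplantation embryos for its link to the rate of cleavage, the Ped phenotype. In the GRCm38.p6 gene order H2-D1 is followed by H2-Q1, H2-Q2, H2-Q4, H2-Q6, H2-Q7 and H2-Q10, and the next gene after H2-Q10 is Pou5f1. H2-K1 lies apart from these, directly beside Ring1, the gene deleted in the eggs of both genotypes.

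Promoters are shown for 5 heavy chain genes. H2-K1, H2-D1, H2-Q6 and H2-Q10 were called in a row of their own in at least 1 comparison, and H2-Q7 has only the row shared with H2-Q6. The H2-Q2 window is not printed, although rows that name H2-Q2 with another gene were called too. Of the motifs below it holds ATTGG alone, at 1 site. Windows of 250 bases before to 50 bases after the start were available in the RefSeq table (GRCm38.p6) for 9 of the 10 genes, all but H2-Q1. The windows printed are H2-K1 at chr17:34000298-34000597 on the minus strand, the more upstream of its 2 starts, and on the plus strand H2-D1 at chr17:35262844-35263143, H2-Q6 at chr17:35424600-35424899, H2-Q7 at chr17:35438905-35439204 and H2-Q10 at chr17:35469839-35470138. Capitals mark matches on either strand to the kappaB core GGGATTCCC, the core TTTCACTTC of the interferon-stimulated response element, the core TGACG of the X2 box and the Y box ATTGG, each 5′ to 3′; their reverse complements are GGGAATCCC, GAAGTGAAA, CGTCA and CCAAT.
H2-K1: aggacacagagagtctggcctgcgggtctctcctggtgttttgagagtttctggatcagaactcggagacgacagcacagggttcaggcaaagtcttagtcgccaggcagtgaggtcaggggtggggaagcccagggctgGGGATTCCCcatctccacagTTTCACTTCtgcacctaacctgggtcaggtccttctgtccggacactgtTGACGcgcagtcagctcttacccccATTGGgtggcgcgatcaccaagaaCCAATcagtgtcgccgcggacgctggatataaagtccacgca
H2-D1: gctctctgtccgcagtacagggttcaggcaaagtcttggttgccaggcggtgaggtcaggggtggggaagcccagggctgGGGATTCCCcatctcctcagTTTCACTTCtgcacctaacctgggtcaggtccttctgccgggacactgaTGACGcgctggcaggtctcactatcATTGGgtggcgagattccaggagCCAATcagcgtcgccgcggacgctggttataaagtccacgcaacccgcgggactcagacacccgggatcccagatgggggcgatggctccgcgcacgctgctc
H2-Q6: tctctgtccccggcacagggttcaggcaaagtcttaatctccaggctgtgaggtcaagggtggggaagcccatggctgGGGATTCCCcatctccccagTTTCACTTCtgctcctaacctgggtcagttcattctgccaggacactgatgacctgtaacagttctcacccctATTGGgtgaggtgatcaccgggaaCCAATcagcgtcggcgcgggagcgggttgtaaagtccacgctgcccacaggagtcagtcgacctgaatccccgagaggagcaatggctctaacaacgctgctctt
H2-Q7: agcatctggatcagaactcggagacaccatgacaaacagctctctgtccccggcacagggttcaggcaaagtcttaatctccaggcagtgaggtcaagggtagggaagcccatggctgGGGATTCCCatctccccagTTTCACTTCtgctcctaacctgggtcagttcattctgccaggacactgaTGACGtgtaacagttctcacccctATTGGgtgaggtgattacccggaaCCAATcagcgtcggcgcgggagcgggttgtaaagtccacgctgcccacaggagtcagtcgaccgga
H2-Q10: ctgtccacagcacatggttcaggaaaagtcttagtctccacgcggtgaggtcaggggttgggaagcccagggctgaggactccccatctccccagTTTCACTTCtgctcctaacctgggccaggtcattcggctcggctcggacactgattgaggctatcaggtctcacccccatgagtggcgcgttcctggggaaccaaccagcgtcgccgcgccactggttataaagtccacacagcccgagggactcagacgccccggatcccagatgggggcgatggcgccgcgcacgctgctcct
The kappaB core was found in the windows of H2-K1, H2-D1, H2-Q6 and H2-Q7, and in 0.353% of all 32851 windows of the table. The interferon-response core was found in these 4 and in H2-Q10 and H2-M3 (0.505% of all windows). TGACG was found in H2-K1, H2-D1, H2-Q7, H2-M3 and B2m (20.8% of all windows) and ATTGG in every window except that of H2-Q10 (37.4%). The motif matches in the printed windows do not overlap each other. H2-Q6 and H2-Q7 were identical at 254 of 260 aligned bases (97.7%), against 83.5% for H2-K1 with H2-Q6 and 79.0% for H2-Q6 with H2-Q10. These matches describe letters and carry no measurement of binding.

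The arrays were comparable in their centre, with medians of 4.45 to 4.55 on the log2 scale. Rnf2 lay between 6.59 and 7.31 in the 6 control arrays and between 5.00 and 5.24 in the 5 mutant arrays, as the labels have it. Ring1, which all eggs lacked, lay between 4.35 and 4.79. The second α-amanitin-treated mutant array had 14.2% of its probe sets above a log2 value of 6, against 11.0% in the first, so called differences that involve the treated mutant pools are given without it too. Those fits leave 1 treated mutant array, so their standard errors draw on the other groups. No adjusted p is given for them. The 10 oocyte markers and the 6 measured genes of the 2-cell activation wave mark the stage. Summed oocyte marker levels on the linear scale were 2040 to 2320 in the untreated control pools, 3560 to 4140 in the untreated mutant pools, 3930 to 4400 in the control pools given α-amanitin, and 4210 to 5140 in the mutant pools given α-amanitin. Summed levels of the activation genes were 964 to 1430, 2110 to 2640, 212 to 266 and 230 to 281 in the same order. In untreated embryos 8 of the 10 oocyte markers and 4 of the 6 activation genes were higher in the mutant, where 6.8% of all probe sets were, and 1 oocyte marker was lower, where 13.7% were. Their part in the class I results was not tested.

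Differences were read from 1 limma fit over all probe sets, and a Benjamini-Hochberg adjusted p below 0.05 counted as a change. In untreated embryos 2 of the 9 measured class I genes were past that threshold as lower in the mutant (H2-Q6 and H2-Q10) and 0 as higher, beside 13.7% of all probe sets lower and 6.8% higher. H2-Q6 was selected on this comparison, so nothing is read from that count, and apart from it 1 of 8 genes was called. The median class I difference was -0.20, against 0.02 over all probe sets. With α-amanitin 1 of 9 was higher in the mutant (H2-K1) and 0 were lower, against 5.52% and 3.52% of all probe sets. In control embryos 5 of 9 were higher without α-amanitin than with it (H2-K1, H2-D1, H2-Q6, H2-Q10 and B2m) and 0 were lower. Of all probe sets 15.9% were higher and 11.4% lower, and the class I median was 0.33 against -0.04. This count and median include H2-Q6 through the untreated control arrays that led to its choice, so nothing is read from its call. Among the 8 other genes H2-K1, H2-D1, H2-Q10 and B2m were called. In mutant embryos 0 of 9 were called in either direction, against 2.55% higher and 1.02% lower, which does not show that they were unchanged. Nothing is read there from H2-Q6, whose untreated mutant arrays led to its choice. The interaction, which subtracts the treatment difference of control embryos from that of mutant embryos, was past the threshold as negative for 2 of 9 (H2-K1 and H2-Q6) and as positive for 0, beside 10.9% and 3.47% of all probe sets. The H2-Q6 interaction holds the same untreated arrays that led to its choice and is no test of it, which leaves H2-K1. Comparisons that share a group of arrays are not independent of each other. The share of higher calls among all calls depended on scaling: it was 33.2%, 61.1%, 58.3%, 71.5% and 24.2% in the 5 comparisons as listed, and 52.4%, 49.0%, 43.2%, 59.3% and 53.8% after quantile normalization.

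**Figure D1:**
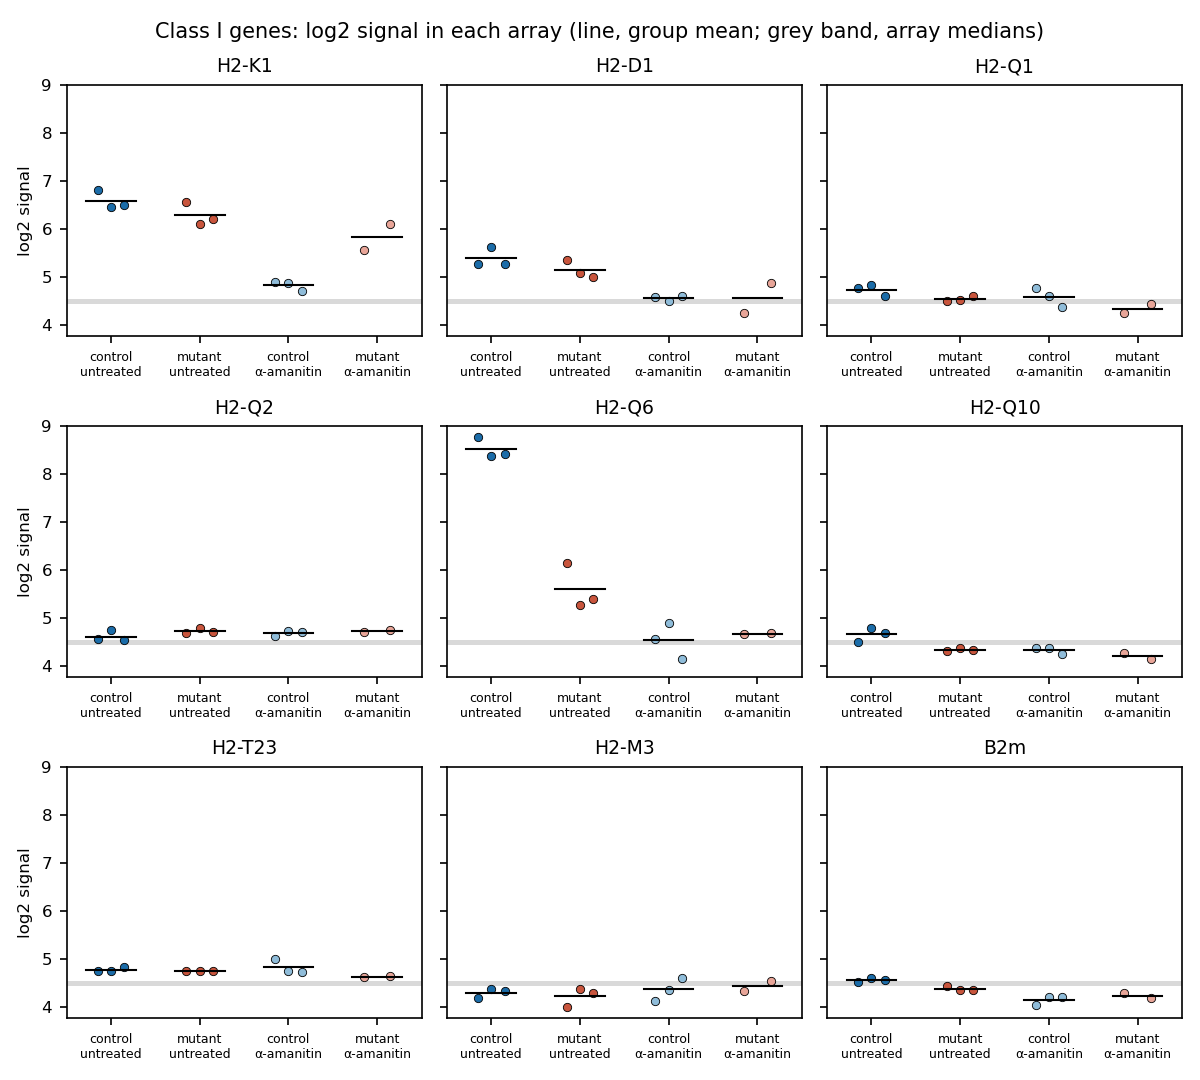
Log2 signal (vertical axis) of the 9 measured class I genes in each of the 11 arrays, by group; points are arrays, black lines group means and the grey band the range of the array medians. H2-Q6 and H2-K1 rise well above the array medians, H2-D1 less so, and the other 6 genes stay within 0.55 of their array's median.

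H2-Q6, a nonclassical heavy chain gene of the Q region, had the widest range of group means of the 9 genes (3.98). Its log2 values were 8.77, 8.38 and 8.41 in the untreated control pools, 6.15, 5.28 and 5.41 in the untreated mutant pools, 4.57, 4.90 and 4.16 in the control pools given α-amanitin, and 4.67 and 4.69 in the mutant pools given α-amanitin. The untreated control arrays lay above all others and the untreated mutant arrays above all treated arrays, while the treated mutant arrays fell inside the range of the treated control arrays. The mutant level was below the control level without α-amanitin, with a difference of -2.91 ± 0.24 (limma's standard error), 7.5-fold on the linear scale, and this is the value that led to the gene being chosen. With α-amanitin the genotype difference was 0.14 ± 0.26 (limma's adjusted p = 0.89). At this array level, near the array median, a difference in the treated embryos could go unseen. In control embryos the untreated level was 3.98 ± 0.24 above the treated level. That comparison uses the same 3 untreated control arrays as the fall, so it too is given with no test. The corresponding difference in mutant embryos was 0.93 ± 0.26, with no overlap between the 3 untreated and the 2 treated arrays. It uses the same 3 untreated mutant arrays as the fall, so no test is given for it either. Fewer embryos that express a gene and less RNA per embryo cannot be told apart in these pools.

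H2-Q7, among the Q-region genes that encode Qa-2, could be read only through a row annotated to both H2-Q7 and H2-Q6. That row had log2 values of 8.57, 8.09 and 8.15 in the untreated control pools, 6.57, 6.19 and 6.20 in the untreated mutant pools, 5.36, 5.34 and 5.33 in the control pools given α-amanitin, and 5.25 and 5.79 in the mutant pools given α-amanitin. The order of the untreated groups was that of the H2-Q6 row. Its mutant minus control difference was -1.95 ± 0.17 without and 0.18 ± 0.19 with α-amanitin. In mutant embryos its untreated level was 0.80 ± 0.19 above the treated level, and 1.07 ± 0.20 above it without the second treated mutant array. These differences use the same untreated mutant arrays as the H2-Q6 fall, so they are given with no test. H2-Q8, a further Q-region heavy chain gene and no member of the chosen set, had 6.27, 6.00 and 5.87 in the untreated control pools, 4.79, 4.69 and 4.85 in the untreated mutant pools, 4.46, 4.52 and 4.46 in the control pools given α-amanitin, and 4.51 and 4.62 in the mutant pools given α-amanitin. Its untreated mutant level was below the control level, with a difference of -1.27 ± 0.10 against -2.91 for the H2-Q6 row.

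The 3 rows are not independent readings. Of the 3 transcript accessions behind the H2-Q6 row, 2 also stand in the row of H2-Q7 and H2-Q6, and 3 of the 4 accessions of that row stand in the rows of H2-Q6 or H2-Q8. Over the 11 arrays, which fall into 4 groups, the H2-Q6 row correlated at r = 0.987 with the shared row and at r = 0.982 with the H2-Q8 row. Probe sequences are not used here, so cross-hybridization between these close copies was not tested, and the contributions of H2-Q6, H2-Q7 and H2-Q8 to the 3 rows cannot be told apart.

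**Figure D2:**
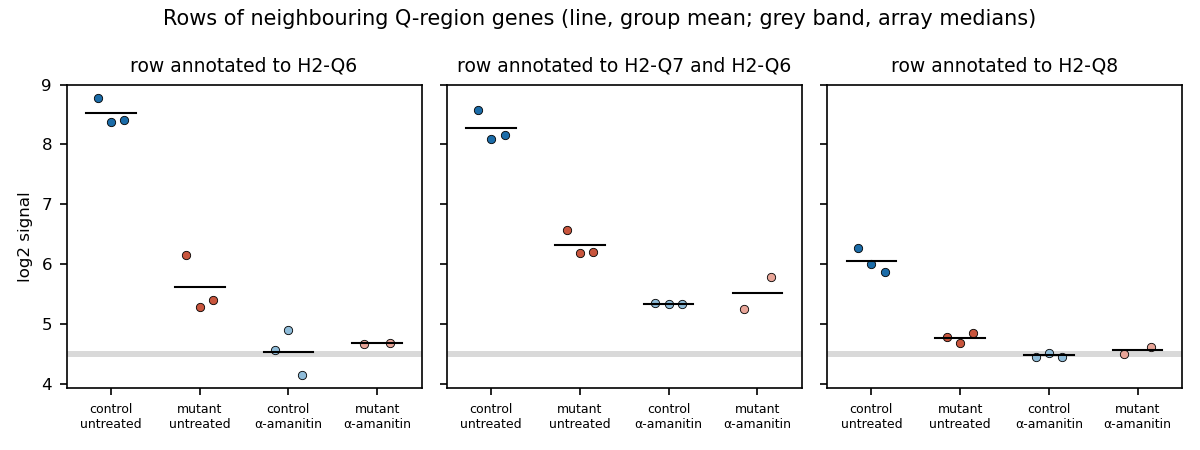
Log2 signal (vertical axis) in each array for the rows annotated to H2-Q6, to both H2-Q7 and H2-Q6, and to H2-Q8, by group; points are arrays, lines group means and the grey band the range of the array medians. In all 3 rows the untreated control arrays are highest and the untreated mutant arrays next in mean, and the treated groups overlap.

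H2-Q10 encodes a heavy chain known in mouse as secreted by the liver, and its signal here was dim. It read 4.50, 4.80 and 4.70 in the untreated control pools, 4.32, 4.38 and 4.33 in the untreated mutant pools, 4.38, 4.38 and 4.25 in the control pools given α-amanitin, and 4.28 and 4.15 in the mutant pools given α-amanitin. The untreated control arrays were the highest, and in 3 of the 11 arrays the gene exceeded that array's median. The mutant level was lower in untreated embryos, with a difference of -0.32 ± 0.09 (limma's adjusted p = 0.0261), and the control level was 0.33 ± 0.09 higher without than with it (limma's adjusted p = 0.017). Both calls depended on single arrays. The genotype call was lost without either untreated control array 2 or 3 or any one of the 3 untreated mutant arrays, where the difference was between -0.34 and -0.26 and the adjusted p between 0.0564 and 0.102. The treatment call was lost without untreated control array 2 or 3 or treated control array 3, at differences of 0.27 to 0.32 and adjusted p of 0.0586 to 0.0732.

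H2-Q1 and H2-Q2, the Q-region genes next to H2-D1, were not called in any comparison in the rows that name them alone. H2-Q1 ranged from 4.26 to 4.83 over the 11 arrays and its largest difference was -0.24 ± 0.12, mutant minus control with α-amanitin (limma's adjusted p = 0.327). H2-Q2 ranged from 4.54 to 4.79 in its brighter row and from 4.15 to 4.84 in the other row of its own. Those 2 rows differed in sign in the untreated genotype comparison, at 0.11 ± 0.08 and -0.04 ± 0.13, neither of them called. A row annotated to both H2-Q2 and H2-gs10 holds the accession of the brighter H2-Q2 row and did not stay flat. It read 4.67, 4.82 and 4.91 in the untreated control pools, 4.61, 4.42 and 4.83 in the untreated mutant pools, 3.95, 3.92 and 4.11 in the control pools given α-amanitin, and 3.99 and 4.01 in the mutant pools given α-amanitin. Every untreated array lay above every treated array. The untreated level was 0.80 ± 0.11 higher in control embryos (limma's adjusted p = 0.000219) and 0.62 ± 0.13 higher in mutant embryos (limma's adjusted p = 0.0231). Without the second treated mutant array the latter was 0.64 ± 0.16, a value that rests on 1 treated array. Which of the named genes this row reads was not tested. In the rows of H2-Q1 and H2-Q2 alone, signal at the array median leaves little room for a fall, so these flat rows do not show that the genes were unchanged.

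H2-K1, the classical H2-K heavy chain gene, had the second widest range of group means (1.75). Its log2 values were 6.82, 6.46 and 6.50 in the untreated control pools, 6.57, 6.10 and 6.21 in the untreated mutant pools, 4.91, 4.88 and 4.72 in the control pools given α-amanitin, and 5.56 and 6.10 in the mutant pools given α-amanitin. The treated control arrays were the lowest, and the treated mutant arrays lay above all 3 of them and touched the range of the untreated mutant arrays. The genotype difference without α-amanitin was -0.30 ± 0.16 (limma's adjusted p = 0.271), with overlapping groups. With α-amanitin the mutant level was 0.99 ± 0.18 higher, 1.99-fold (limma's adjusted p = 0.00675, higher in 2 of 2 mutant arrays). That call rests on 2 treated mutant arrays. Without the second, the one with the wider distribution, the difference was smaller, at 0.72. Control embryos held 1.75 ± 0.16 more without than with α-amanitin (limma's adjusted p = 9.81e-06), 3.37-fold. Mutant embryos held 0.46 ± 0.18 more (limma's adjusted p = 0.249), which passed the threshold after quantile normalization at 0.51 (limma's adjusted p = 0.0343). The interaction, which tests whether the treatment difference depends on genotype, was -1.29 ± 0.25 (limma's adjusted p = 0.00445). It was -1.02 ± 0.24 without the second treated mutant array, which leaves 1 array in that group.

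Class I RNA is abundant in leukocytes and present in most somatic cells, so markers of other cells in the pools are given beside the H2-K1 difference with α-amanitin. Summed leukocyte marker levels over 12 genes were 245 to 254 in treated control and 271 to 280 in treated mutant arrays, and 1 of the 12, Lcp1, an actin-bundling protein gene, was higher in the mutant (0.63 ± 0.16, limma's adjusted p = 0.0392), beside 5.52% of all probe sets. Without the second treated mutant array the Lcp1 difference was smaller, at 0.36 ± 0.17. Summed cumulus and granulosa marker levels over 12 genes were 249 to 270 and 301 to 332, with 1 of the 12 higher, Ptgs2, which encodes a prostaglandin synthase of the cumulus (1.32 ± 0.16, limma's adjusted p = 0.000795, and 1.17 ± 0.20 without that array). Summed levels of the 10 sperm markers were 217 to 229 and 225 to 235, with 0 called, beside 5.52% of all probe sets higher and 3.52% lower. In treated mutant embryos 1 of the 12 leukocyte markers and 2 of the 12 cumulus markers had a group mean above 5, and no value on this scale marks absence. In untreated embryos the markers moved both ways between genotypes: Lcp1 and Ptgs2 were higher in the mutant by 0.72 ± 0.15 and 1.30 ± 0.15, as was Cyp19a1, the aromatase gene, by 0.44 ± 0.12, while Amhr2, the anti-Müllerian hormone receptor gene, differed by -1.68 ± 0.12 (limma's adjusted p = 8.54e-06). H2-K1 was not called there. Their part in the H2-K1 difference was not tested.

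A row annotated to both H2-Q2 and H2-t9 followed H2-K1 and not the rows of H2-Q2 alone. It read 6.29, 6.09 and 6.38 in the untreated control pools, 6.09, 5.87 and 5.88 in the untreated mutant pools, 5.11, 5.23 and 4.81 in the control pools given α-amanitin, and 5.46 and 5.79 in the mutant pools given α-amanitin, and correlated with the H2-K1 row at r = 0.973 over the 11 arrays in their 4 groups. The treated control arrays were lowest and the treated mutant arrays lay above them, with a genotype difference of 0.58 ± 0.15, and of 0.41 ± 0.18 without the second treated mutant array. This row was singled out after its values were seen, so its values are a description and no second test of H2-K1. It shares no listed accession with the H2-K1 row, and which transcript it reads was not tested. Another row that names the same 2 genes did not follow H2-K1. Its means were 4.22 in the untreated control, 4.22 in the untreated mutant, 4.25 in the treated control and 4.33 in the treated mutant pools. The genotype difference of that other row with α-amanitin was 0.07 ± 0.10 (limma's adjusted p = 0.828).

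H2-D1 is the classical H2-D heavy chain gene. Its log2 values were 5.28, 5.63 and 5.28 in the untreated control pools, 5.35, 5.09 and 5.00 in the untreated mutant pools, 4.58, 4.51 and 4.60 in the control pools given α-amanitin, and 4.26 and 4.88 in the mutant pools given α-amanitin. Every untreated array lay above every treated array, and the untreated genotypes overlapped. The control level was 0.84 ± 0.16 higher without than with α-amanitin (limma's adjusted p = 0.00203), 1.79-fold. In mutant embryos the difference was 0.57 ± 0.18 (limma's adjusted p = 0.128), and without the second treated mutant array it was 0.88. The genotype differences were -0.26 ± 0.16 without and 0.01 ± 0.18 with α-amanitin, and neither was called. The H2-D1 interaction was -0.26 ± 0.24 (limma's adjusted p = 0.614), so unlike H2-K1 it gave no call that the treatment difference depended on genotype. Whether the 2 genes differ from each other in this was not tested. A row annotated to both H2-T3 and H2-D1 ranged from 4.01 to 4.42 over the 11 arrays and was not called in any comparison.

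B2m, the light chain gene, was dim, above the array's own median in 3 of 11 arrays. It read 4.53, 4.60 and 4.56 in the untreated control pools, 4.44, 4.36 and 4.37 in the untreated mutant pools, 4.05, 4.22 and 4.21 in the control pools given α-amanitin, and 4.29 and 4.19 in the mutant pools given α-amanitin. The untreated control arrays were the highest, followed without overlap by the untreated mutant arrays, while the treated groups overlapped. The control level was 0.40 ± 0.08 higher without than with α-amanitin (limma's adjusted p = 0.00192), 1.32-fold. The untreated mutant level differed from the control level by -0.17 ± 0.08, which was not called (limma's adjusted p = 0.159). The mutant treatment difference was 0.15 ± 0.09 (limma's adjusted p = 0.473) and the interaction -0.25 ± 0.11 (limma's adjusted p = 0.212).

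H2-T23, which encodes the Qa-1 heavy chain read by natural killer cell receptors, and H2-M3, which encodes a heavy chain that presents N-formylated peptides, were not called in any comparison. H2-T23 ranged from 4.63 to 5.01 and H2-M3 from 4.01 to 4.61 over the 11 arrays. The deposited H2-T23 value was the same to every digit, 4.76, in 6 of the 11 arrays, which held for as many arrays or more in 0.972% of all probe sets, so its spread of 0 among untreated mutant arrays is not a measure of replicate error. The largest differences were -0.20 ± 0.10 for H2-T23, mutant minus control with α-amanitin (limma's adjusted p = 0.297), and -0.22 ± 0.15 for H2-M3, untreated minus α-amanitin in mutant embryos (limma's adjusted p = 0.58).

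**Figure D3:**
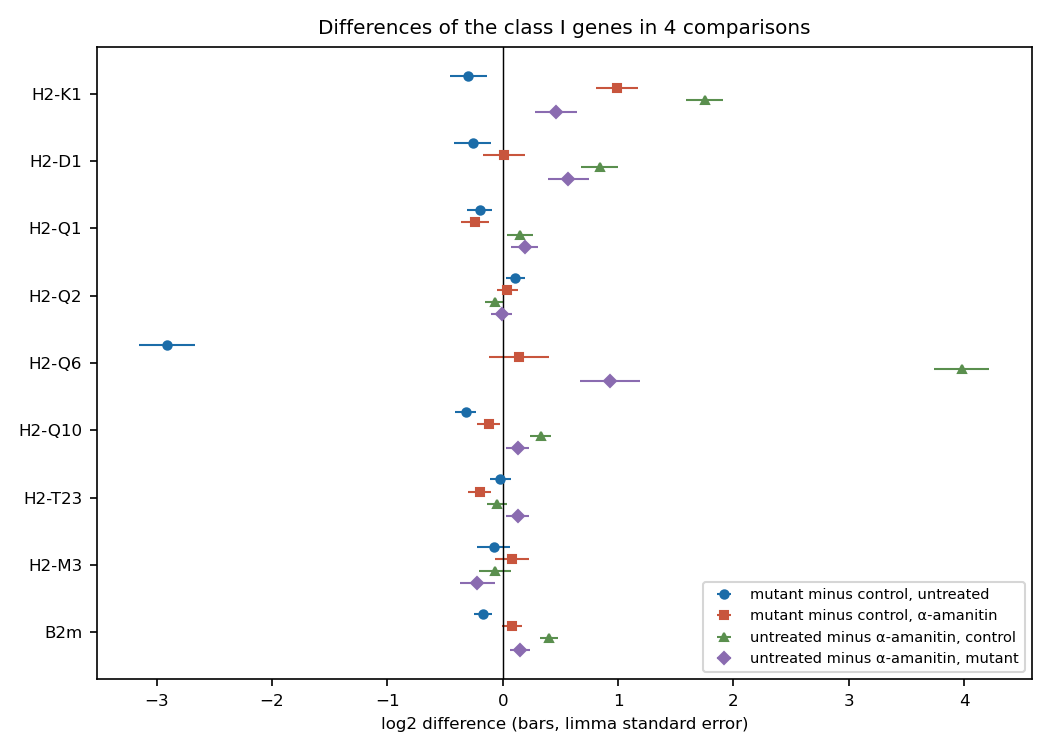
Log2 differences (horizontal axis) of the 9 measured class I genes with limma's standard error, for the genotype comparison (mutant minus control) in untreated and treated embryos and for the treatment comparison (untreated minus α-amanitin) in each genotype. H2-Q6 stands out in untreated embryos of the 2 genotypes (-2.91) and H2-K1 is the gene that differs between genotypes with α-amanitin (0.99).

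Genes that supply peptides to class I molecules were next examined as lists, described by counts. The shares beside the counts of this and later lists are of all probe sets, dim ones included. With only the brighter 50% tested, 4984 of 17380 probe sets were lower and 2354 higher in untreated mutant embryos. In control embryos 5466 of these were then higher and 3808 lower without α-amanitin. The immunoproteasome list held 5 genes, of which 3 fell in untreated mutant embryos and 0 rose, beside 13.7% of all probe sets lower and 6.8% higher, with a median of -0.83 against 0.02. Psmb10, a catalytic subunit, fell by 0.99 ± 0.11 (limma's adjusted p = 8.41e-05), and the activator subunit genes Psme1 and Psme2 had differences of -0.83 ± 0.10 and -1.47 ± 0.23 (limma's adjusted p = 0.000167 and 0.000899). The same 3 were higher in control embryos without than with α-amanitin, beside 15.9% of all probe sets, Psme2 by 2.1 ± 0.23, Psmb10 by 1.16 ± 0.11 and Psme1 by 0.79 ± 0.10. The other catalytic subunit genes, Psmb8 and Psmb9, were called in neither comparison.

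The peptide loading list held 10 measured genes, and 5 fell in untreated mutant embryos while 0 rose, beside 13.7% and 6.8% of all probe sets, with a median of -0.55. Pdia3, the disulphide isomerase of the loading complex, differed by -1.5 ± 0.14, Uggt1, which returns unfolded glycoproteins to the chaperones, by -1.29 ± 0.14, and Sppl3, an intramembrane protease, by -1.30 ± 0.12 (limma's adjusted p between 3.04e-05 and 6.22e-05). Control embryos held more of 5 of the 10 without α-amanitin, beside 15.9% of all probe sets, and less of 1, beside 11.4%, Ganab, a glucosidase subunit gene (-0.60 ± 0.13). Tapbp, the tapasin gene that bridges class I to the peptide transporter, and Erap1, which trims peptides, were called in neither. With α-amanitin Bcap31, an endoplasmic reticulum export factor gene, was 1.46 ± 0.16 higher in the mutant (limma's adjusted p = 0.000349) and Canx, the calnexin gene, 1.01 ± 0.16 lower (limma's adjusted p = 0.00255). Without the second treated mutant array these differences were 1.26 ± 0.18 and -1.23 ± 0.17. Both genes were among those that fell in untreated mutant embryos, Bcap31 at -1.22 ± 0.14 and Canx at -0.97 ± 0.14. The sign of the Bcap31 difference thus changed with treatment and that of Canx did not. Tap1 and Tap2, the transporter genes, had no row of their own.

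**Figure D4:**
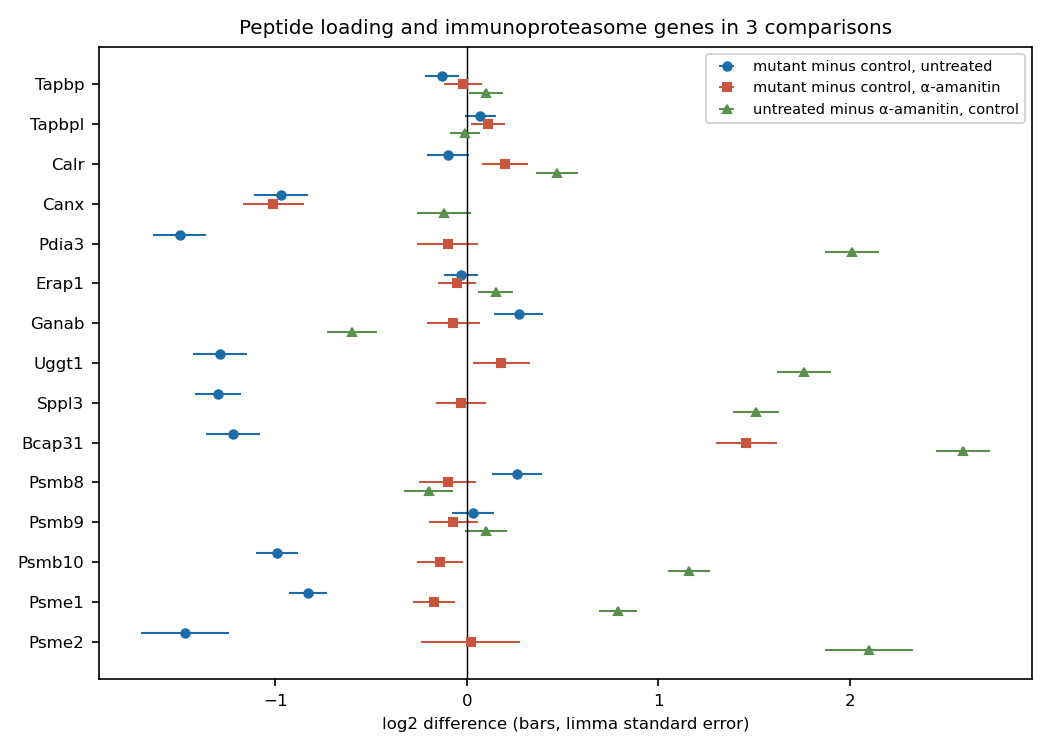
Log2 differences (horizontal axis) with limma's standard error for the 10 peptide loading and 5 immunoproteasome genes with a probe set of their own, in 3 comparisons. Most genes that are lower in untreated mutant embryos are higher in control embryos without α-amanitin, with Pdia3 at -1.5 and 2.01. Bcap31 (1.46) and Canx (-1.01) are the 2 that differ between genotypes with α-amanitin. Both are lower in untreated mutant embryos (-1.22 and -0.97).

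Of 16 regulators of class I transcription 7 fell and 1 rose in untreated mutant embryos (median -0.28), beside 13.7% and 6.8% of all probe sets. In control embryos 8 were higher and 3 lower without α-amanitin (median 0.52), beside 15.9% and 11.4%. Nfyb, a subunit of the factor that binds the Y box, differed by -1.16 ± 0.14 between the untreated genotypes (limma's adjusted p = 0.000146). Relb, of the NF-kappaB family, differed by -0.70 ± 0.09 (limma's adjusted p = 0.00019), and Atf1, of the family that binds TGACG, by -1.18 ± 0.14 (limma's adjusted p = 0.000127). With α-amanitin Nfya, another Y-box subunit gene, was 1.16 ± 0.18 higher in the mutant and Atf1 differed by -0.98 ± 0.16. Without the second treated mutant array these differences were 0.90 ± 0.19 and -1.19 ± 0.17. Nlrc5, the class I transactivator, and Irf1 were not called in the comparisons of genotype or of treatment in control embryos.

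Of 26 measured interferon response genes 3 were higher and 5 lower in untreated mutant embryos (median 0.07), beside 6.8% and 13.7% of all probe sets. In control embryos 6 were higher and 3 lower without α-amanitin (median -0.06), beside 15.9% and 11.4%. No result about the list is read from these counts. Stat2, which carries the type I interferon signal to the nucleus, was -1.01 ± 0.10 different in untreated mutant embryos and 0.65 ± 0.12 higher in mutant embryos with α-amanitin (limma's adjusted p = 5.53e-05 and 0.00577). The latter was 0.46 ± 0.12 without the second treated mutant array. Jak1, a kinase of the receptors, was 0.82 ± 0.11 higher and the receptor gene Ifnar1 0.80 ± 0.13 lower in untreated mutant embryos. The 14 other class I heavy chain genes with a row of their own gave 1 call between untreated genotypes and 1 for treatment in control embryos. Both were H2-Q8, lower in the mutant, beside 13.7% of all probe sets, and higher without α-amanitin, beside 15.9%. The H2-Q8 row is not independent of the H2-Q6 row, so nothing is read from these counts. Of 7 class I-like genes 1 was lower in untreated mutant embryos, beside 13.7% of all probe sets. It was Fcgrt, the neonatal Fc receptor gene, at -0.63 ± 0.13 (limma's adjusted p = 0.00473).

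Class II genes, which present peptides taken up from outside the cell, gave 0 calls among 9 for treatment in control embryos. Of all probe sets 15.9% were higher and 11.4% lower there. Between the untreated genotypes 1 class II gene was higher and 0 were lower, beside 6.8% and 13.7% of all probe sets. That gene, H2-Aa, was 0.83 ± 0.16 higher in the untreated mutant (limma's adjusted p = 0.00379) and 0.66 ± 0.18 higher in the treated mutant (limma's adjusted p = 0.0483). The second difference was smaller, at 0.39 ± 0.19, without the second treated mutant array. The 9 measured genes for class I receptors of leukocytes gave 0 calls in all 5 comparisons by limma. The shares of all probe sets called in 1 direction ran from 1.02% to 15.9%, so nothing is read from this count. Neighbours of the class I genes on chromosome 17 were counted as well: of 29 measured, 11 fell and 2 rose in untreated mutant embryos (median -0.18), beside 13.7% and 6.8% of all probe sets. In control embryos 14 were higher and 3 lower without α-amanitin (median 0.24), beside 15.9% and 11.4%. Abcf1, a translation factor gene, differed by -1.53 ± 0.10 between the untreated genotypes, Wdr46, a nucleolar protein gene, by -1.20 ± 0.10 and Pfdn6, a prefoldin chaperone subunit gene, by -2.13 ± 0.19 (limma's adjusted p between 7.40e-06 and 2.93e-05). Pfdn6 lies in the stretch around H2-K1, which itself was not called there. The 2 neighbours that rose were Pou5f1, the gene after H2-Q10, by 1.37 ± 0.13 (limma's adjusted p = 2.97e-05) and Pbx2 by 0.76 ± 0.16.

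Because Qa-2 is held by a GPI anchor, the 22 genes of anchor synthesis were counted too. In untreated mutant embryos 5 fell and 3 rose (median -0.10), beside 13.7% and 6.8% of all probe sets. In control embryos 8 were higher and 5 lower without α-amanitin (median 0.16), beside 15.9% and 11.4%. Dpm1 and Dpm3, subunits of the enzyme that makes the mannose donor, differed by -1.86 ± 0.17 and -1.21 ± 0.15 between the untreated genotypes (limma's adjusted p = 3.24e-05 and 0.000188), while Pigf, which acts in attaching ethanolamine phosphate, was 0.73 ± 0.15 higher (limma's adjusted p = 0.00473).

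Among 10604 genes with a mean above the median of all genes, the 5 whose values were most like those of H2-Q6 over the 11 arrays were Riox1 (Pearson's r = 0.9963), Flvcr2 (r = 0.9949), OTTMUSG00000016083 (r = 0.9945), Dolk (r = 0.9944) and Dpm1 (r = 0.9939). Riox1, a ribosomal oxygenase gene, averaged 7.72 in the untreated control pools, 5.08 in the untreated mutant pools, 4.34 in the control pools given α-amanitin, and 4.43 in the mutant pools given α-amanitin. Flvcr2, a transporter gene, averaged 8.31, 5.53, 4.45 and 4.46 in the same order. These genes share the order of groups with H2-Q6, and the arrays fall into 4 groups, so r largely restates the group means.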

How the data were processed

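The authors' deposited table holds log2 values for 11 arrays, from 1.11 to 12.85; per the submitters' processing notes they came from R 2.10.0 with affy. The sources used here do not give the background correction, normalization or genome build. Values are relative to the other RNA on an array, and detection calls were not used here. The number of arrays limits the precision. Members and gene lists were chosen with earlier results of these data known.

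Symbols came from the platform annotation: 22856 probe sets had 1, 1756 several and 10148 none (31 unlisted); Entrez identifiers in the reference gene table matched 19579 and changed 3494 symbols. The fit took all 34760 probe sets (limma 3.58.1 under R 4.3.3, lmFit, 1 mean per group, then eBayes; 7 residual and 3.59 prior degrees of freedom), with 2-sided p-values adjusted by Benjamini-Hochberg over all probe sets. ± is limma's standard error. The code was tested on simulated data. Replicates are biological by the labels, and no batch is named. Named were all members, up to 3 genes per list and comparison with the smallest adjusted p, and the 5 genes most like the member of widest range; other list genes, markers and shared rows were named after their values were seen. Alternatives covered normalization, centring, a dim filter, the prior, array weights, the replicate block, the arrays fitted, other probe sets and leaving out each array. The 10 pathway and 5 marker lists held the genes described in the results. Motifs were searched with Python 3.11.15, and promoters were aligned with Biopython 1.88.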

Additional observations from a re-analysis of the deposited data

Results flagged for a closer look

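For H2-K1 the interaction was called as negative, beside 10.9% of all probe sets. The untreated minus α-amanitin difference of H2-K1 was 1.75 ± 0.16 in control embryos but 0.46 ± 0.18 in mutant embryos. The interaction was -1.29 ± 0.25 (limma's adjusted p = 0.00445). Without the second treated mutant array, which leaves 1 in that group, it was -1.02 ± 0.24. The treated mutant arrays read 5.56 and 6.10 and the treated control arrays 4.91, 4.88 and 4.72.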

How the results depend on the processing

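The 45 differences of the 9 measured genes in 5 comparisons were recomputed under 19 alternatives and, for H2-Q2 and H2-Q6, another row; the H2-Q7 and H2-Q6 row was chosen after seeing the data. Of 810 values 771 kept direction and side of the threshold, 9 lost a call, 4 gained one and 26 changed sign; no called difference changed sign. With only the brighter 50% of probe sets tested, which leaves out dim genes, 6 of the 9 genes remained. The count of lower genes in untreated mutant embryos, which includes H2-Q6, fell from 2 to 1 of 6, beside 4984 of 17380 probe sets. That of higher genes in untreated control embryos fell from 5 to 3 of 6, beside 5466 of 17380. That of higher genes in untreated mutant embryos rose from 0 to 1 of 6, beside 1087 of 17380. The gene was H2-Q6, so nothing is read from that rise. The last count was also 1 after quantile normalization and with the row of H2-Q7 and H2-Q6. Leaving out 1 array, the first 2 of these counts ranged from 1 to 2 and from 4 to 5. Without either treated mutant array 1 array remains in that group, so no count for that group is given from those fits. The 810 values include them. Sign changes among uncalled differences, whose cause was not tested, were as follows. After quantile normalization H2-K1 (0.09) and H2-T23 (0.00) turned between untreated genotypes, and H2-D1 (-0.08) and H2-Q2 (-0.02) between treated ones. H2-D1 also turned there with centred arrays (-0.02). In the other probe set H2-Q2 turned to -0.04 between untreated genotypes and -0.37 in the interaction, and the mean of its probe sets gave -0.15 in the interaction. Leaving out 1 array, the untreated genotype difference ranged from -0.03 to 0.00 for H2-T23 and from -0.16 to 0.03 for H2-M3. The treated genotype difference ranged from -0.30 to 0.32 for H2-D1, from -0.06 to 0.32 for H2-Q6 and from -0.04 to 0.20 for H2-M3. The control treatment difference ranged from -0.10 to 0.04 for H2-T23 and from -0.18 to 0.05 for H2-M3, and the mutant one from -0.03 to 0.02 for H2-Q2. The interaction ranged from -0.57 to 0.05 for H2-D1 and from -0.05 to 0.14 for H2-Q1. The 76 differences of list genes named by the rule gave 1275 values that kept direction and side of the threshold, 93 that lost the call and 0 that changed sign.

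Replicate numbers are shared between groups, and same-numbered arrays correlated in their deviations from the group means at -0.223 to 0.154. The negative values all involve the treated mutant group, whose 2 arrays deviate from their mean in opposite ways by construction. Among the other groups same-numbered arrays correlated at 0.029 to 0.154 and different-numbered ones at -0.119 to 0.037. Whether the numbers mark anything shared in handling was not tested. With the replicate block 2 genes stayed lower in untreated mutant embryos, and the uncalled differences of H2-D1 with α-amanitin (-0.03) and of H2-Q2 for treatment in mutant embryos (0.01) changed sign. Signal near the array median limits what falls can be seen.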
